A study of Mus musculus with 16 samples.

Results

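The genes described here are 9 enzymes of pyruvate dehydrogenase and the citric acid cycle, Pdha1, Dlat, Cs, Idh2, Idh3a, Ogdh, Sucla2, Fh1 and Mdh2, in gastrocnemius muscle of mice. They were taken by name from the gene names of the array, which gave 15 of its 41174 probes, and are 9 of 13822 genes with a probe past the signal filter below. Of these, 14 had a mean signal of at least 2 times background in both channels, as did 19398 probes in all. The probe left out was the third probe of Sucla2, with a mean Cy5 signal of 1.99 times background. Male C57BL/6N mice, 3 months old at the start, received a corn-oil-based high-fat diet (cHF, about 35% lipid by weight) which held rosiglitazone, a drug that activates PPARγ, for 8 weeks (10 mg per kg of diet, cHF+ROSI, 8 mice). In the second group (cHF+F+ROSI, 8 mice) the diet was the same except that 15% of its lipids were replaced by a concentrate of the n-3 LC-PUFA DHA (46%) and EPA (14%). All 16 mice were fasted for 10 h in the light phase, re-fed Chow overnight and killed the next morning. Every mouse thus had rosiglitazone and the high-fat diet, and the comparison concerns what n-3 LC-PUFA added to them in re-fed muscle.

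Pyruvate from glycolysis enters the mitochondrion and is converted by the pyruvate dehydrogenase complex to acetyl-CoA, an irreversible step that commits carbohydrate carbon to oxidation. Kinases of the PDK family switch the complex off by phosphorylation, and phosphatases such as PDP1 switch it on. In the citric acid cycle the acetyl group is joined to oxaloacetate and oxidized, which yields the reducing equivalents for the respiratory chain, and fatty acid oxidation feeds the same cycle. The share of carbohydrate and fat burnt by muscle changes between fasting and re-feeding, and the activity of the complex is one point where that share is set.

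The CCAAT box, bound by the factor NF-Y, is a common element of mammalian promoters. To show the sequence in front of the gene with the widest and the gene with the narrowest spread between mice, the 250 bases before the annotated start of Idh2 and of Fh1 are given below, with matches to CCAAT on either strand in capitals. The sequences are from RefSeq on GRCm38.p6, 5′ to 3′ on the strand of the gene, which is the minus strand in both cases. The window of Idh2 is chr7:80115351-80115600 and that of Fh1 is chr1:175625636-175625885.
Idh2: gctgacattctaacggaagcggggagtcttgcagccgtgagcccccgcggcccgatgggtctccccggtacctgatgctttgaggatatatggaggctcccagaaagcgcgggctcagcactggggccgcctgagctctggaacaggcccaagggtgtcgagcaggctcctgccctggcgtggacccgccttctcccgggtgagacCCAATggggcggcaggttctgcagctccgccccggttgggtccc
Fh1: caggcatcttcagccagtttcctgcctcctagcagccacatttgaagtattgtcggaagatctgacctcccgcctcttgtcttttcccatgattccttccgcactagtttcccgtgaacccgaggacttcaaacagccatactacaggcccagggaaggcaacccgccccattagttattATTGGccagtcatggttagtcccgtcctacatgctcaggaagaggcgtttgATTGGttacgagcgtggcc

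CCAAT began 44 bases before the start in Idh2, and its reverse complement began 70 and 19 bases before the start in Fh1. Of the 9 genes 8 were matched in the promoter table, and 4 of these 8 (Cs, Idh2, Ogdh and Fh1) held CCAAT in a window of this length, as did 33.8% of the 32851 windows of the table. A gene was counted if any of its windows held the letters, and Ogdh had more than 1 window, while the percentages count single windows. The site of estrogen-related receptors was searched as TNAAGGTCA on both strands and was in none of the 8 genes and in 1.14% of all windows. GCGCATGCG, the core of the NRF1 site, was in some of the windows of 1 of the 8 genes, Ogdh, and in 1.45% of all windows. CCGGAAGT, bound by ETS factors such as GABP, was in none of the 8 genes and in 2.88% of all windows. No motif searched contains another. A match describes these letters only.

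Each array compared Cy5-labelled RNA of 1 mouse with a Cy3-labelled pool of all diets. A level below is log2(Cy5/Cy3) of a probe, and a log2 fold change (log2 FC) is the cHF+F+ROSI mean minus the cHF+ROSI mean. The arrays had no dye swap, and the height of a level differed between probes of a gene. The 2 Cs probes, for example, had means of 0.33 and -0.42 in cHF+ROSI mice. Levels are therefore read between mice, and their height or sign does not give abundance relative to the pool. The arrays lay on 4 slides, each with 2 mice of either group, and position on the slide went with diet, so that position and diet cannot be told apart. The median Cy5 signal was between 2.33 and 3.64 times background in the cHF+ROSI arrays and 2.98 to 3.46 in the arrays of the second group, and the lowest values of all 16 belonged to cHF+ROSI mouse 1 (2.33; next of its group 3.02) and cHF+F+ROSI mouse 2 (2.98). The second of these arrays stood apart in its muscle genes, with the lowest mean level of the 9 slow fiber genes examined. Values without these 2 arrays are given beside many of the results that rest on them, but the slow fiber genes were not refitted without them. All 12 fast fiber genes examined, such as Myh4 and Actn3, were well above background on all 16 arrays, as in skeletal muscle. In whole muscle, fewer cells of a type and less RNA per cell cannot be told apart.

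The 9 genes differed little between the diets. On the brightest probe of each gene, 6 of 9 were higher and 3 lower in cHF+F+ROSI mice, with a median log2 FC of 0.06 and a range from -0.13 (Idh2) to 0.17 (Idh3a), but after scale normalization between arrays only 4 of 9 were higher. That was the lowest count over the 30 alternatives described below. The count was 8 in the authors' table and 9 with array quality weights. Over all 14 probes, 9 were higher, where 49.2% of all 19398 probes were higher (median log2 FC -0.0014). With limma and Benjamini-Hochberg adjustment over 19398 probes, no probe of the 9 genes had an adjusted p below 0.05 (range 0.678 to 0.989), and 0.0155% of all probes did (3 probes). At an unadjusted limma p of up to 0.05 the count was also 0 of 14, against 7.46% of all probes, whereas the exact permutation test over all 12870 splits of 8 against 8 gave a p of up to 0.05 for 1 of the 14 probes, that of Idh3a, and for 7.91% of all probes. The 2 groups overlapped in all 14 probes, and did not overlap in 0.0773% of all probes. The widest 95% interval on the brightest probes was that of Idh2, from 0.663-fold to 1.26-fold, so changes within those bounds were not excluded there. None of the 9 genes reached a 1.2-fold difference of the means in this fit, but Mdh2 had a log2 FC of -0.54 after scale normalization between arrays.

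**Figure D1:**
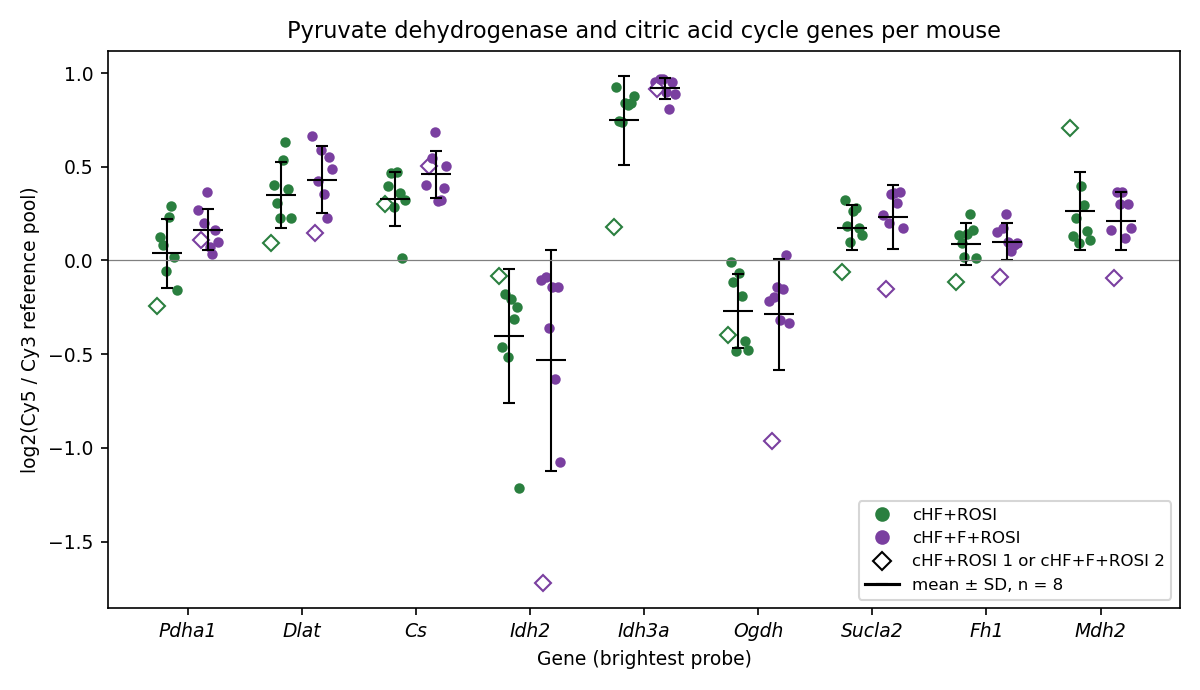
Level of each of the 9 genes in every mouse, as log2(Cy5/Cy3 reference pool) on the brightest probe, with cHF+ROSI mice in green, cHF+F+ROSI mice in purple and the mean ± SD of 8 mice in black. The groups overlap in every gene, the values of Idh2 spread most (from -1.72 to -0.08), and the open diamonds mark cHF+ROSI mouse 1 and cHF+F+ROSI mouse 2, which hold the lowest value in 8 of the 9 genes.

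In the pyruvate dehydrogenase complex all 5 subunit genes were higher in cHF+F+ROSI mice on their brightest probe, as were all 11 of their probes, by small amounts (median log2 FC 0.11 over the 5 genes), while 3 of 5 were higher after scale normalization between arrays and 4 of 5 in the Cy5 channel alone. None had an unadjusted limma p of up to 0.05 on its brightest probe. Pdha1, the catalytic E1 alpha subunit encoded on the X chromosome (probe at chrX:155467776-155467835, mm8), lay between -0.24 and 0.29 (median 0.05) in cHF+ROSI mice and between 0.04 and 0.36 (median 0.13) in cHF+F+ROSI mice. The groups overlapped, but 7 of 8 cHF+F+ROSI mice were above the cHF+ROSI mean, and the 4 lowest values were all of cHF+ROSI mice. The log2 FC of Pdha1 was 0.13 (95% interval -0.03 to 0.28, exact permutation p = 0.117). A second Pdha1 probe, 938 bases away by its first base, gave 0.02 (-0.15 to 0.20).

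Dlat, the acetyltransferase core (E2) of the complex (chr9:50388743-50389703), ranged from 0.09 to 0.63 (median 0.34) in cHF+ROSI mice and from 0.15 to 0.66 (median 0.46) in cHF+F+ROSI mice. Both groups covered nearly the same range. Its log2 FC was 0.08 (-0.10 to 0.26, exact permutation p = 0.372), and its second probe gave 0.18 (-0.02 to 0.37, exact permutation p = 0.0845). On the brightest probe it was 0.04 without cHF+ROSI mouse 1, 0.12 without cHF+F+ROSI mouse 2 and -0.08 after scale normalization between arrays. Pdhb, the E1 beta subunit, had a log2 FC of 0.11 and 0.15 on its 2 probes. Its brightest probe was at -0.40 in cHF+ROSI mouse 1 and between 0.24 and 0.40 in the other 7 cHF+ROSI mice, and without mouse 1 the log2 FC was 0.01. Pdhx, which tethers the E3 subunit to the core, differed by 0.08 and 0.11. Dld, the E3 subunit shared with the 2-oxoglutarate and branched-chain complexes, differed by 0.19, 0.09 and 0.14. The weaker probe of Pdhx (exact permutation p = 0.0395) and the third probe of Dld (exact permutation p = 0.0216) passed an unadjusted limit of 0.05, with limma adjusted p of 0.666 and 0.630.

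**Figure D2:**
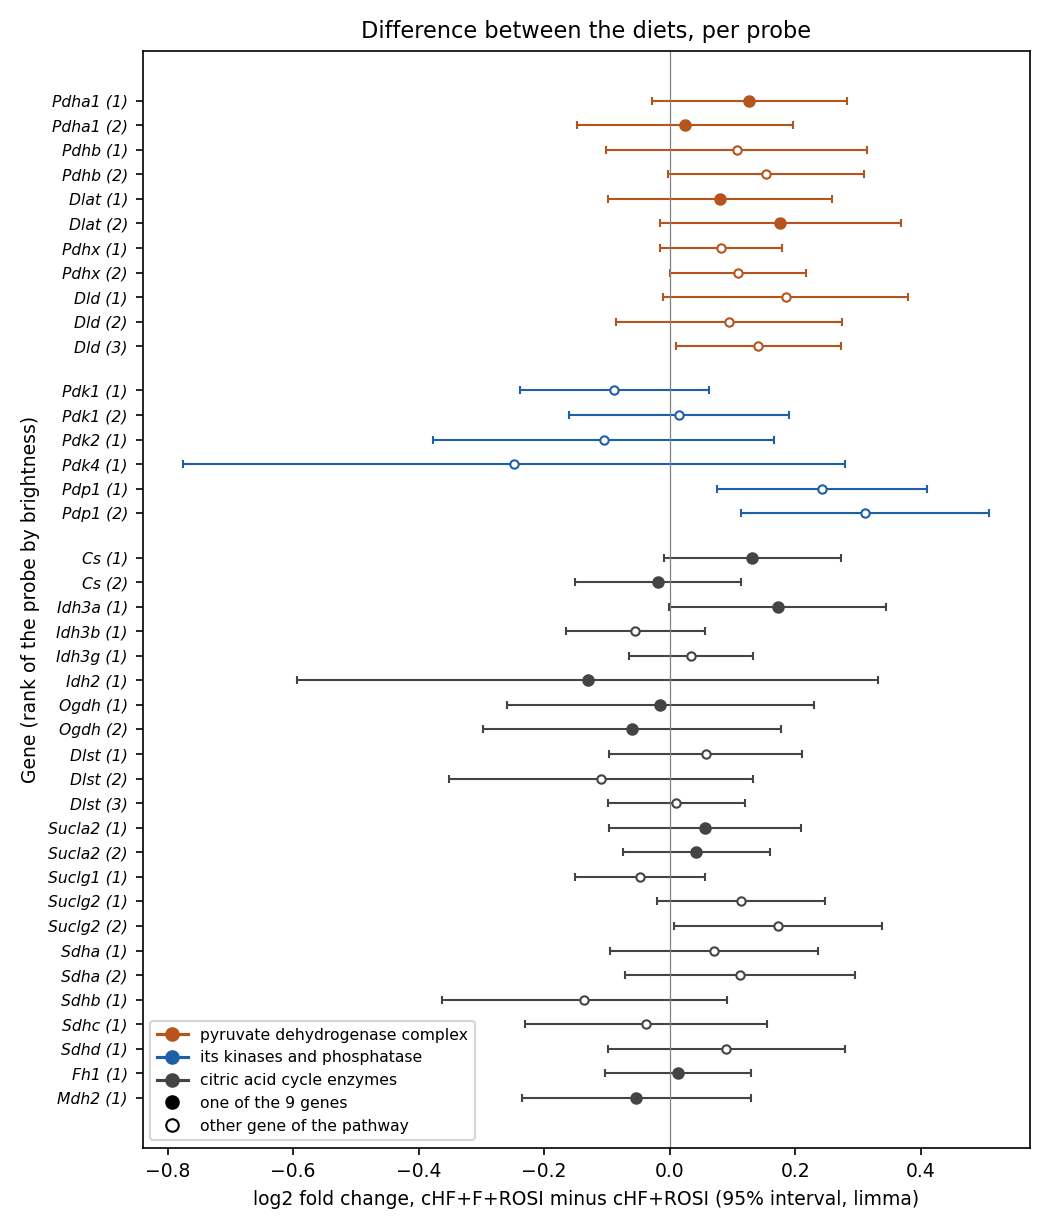
Log2 fold change (cHF+F+ROSI minus cHF+ROSI, 8 mice each) with its 95% interval from limma for probes of the pyruvate dehydrogenase complex (orange), its kinases and phosphatase (blue) and the citric acid cycle enzymes (grey), filled for the 9 genes and open for the others. All 11 probes of the complex lie above 0 (not so after scale normalization between arrays), both Pdp1 probes lie clear of 0, and the cycle enzymes lie on both sides.

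Among the regulators of the complex, the phosphatase gene was higher and the kinase genes were lower on their brightest probes, except that after scale normalization between arrays Pdp1 was at -0.03 and Pdk2 at 0.12. Pdp1 encodes the catalytic subunit of the phosphatase that dephosphorylates and activates the complex. Its brightest probe, listed under the older name Ppm2c, lay between 0.27 and 0.79 (median 0.59) in cHF+ROSI mice and between 0.51 and 0.97 (median 0.86) in cHF+F+ROSI mice. The 5 highest of the 16 values were of cHF+F+ROSI mice. The log2 FC was 0.24 (95% interval 0.08 to 0.41, exact permutation p = 0.0123, limma adjusted p = 0.459), and the second probe gave 0.31 (0.11 to 0.51, exact permutation p = 0.00653, limma adjusted p = 0.406). Both probes were higher in cHF+F+ROSI mice on all 4 slides, by 0.16 to 0.34 and by 0.22 to 0.45. The difference kept its direction in 29 of 30 alternatives and turned to -0.03 after scale normalization between arrays. Over all genes, 3.73% of 13822 had an unadjusted limma p of up to 0.05 and were higher in cHF+F+ROSI mice, and 4.62% were lower.

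Pdk4, the kinase induced by fasting and by fatty acids, differed in spread more than in mean. It ranged from -1.89 to 0.15 (median -0.61) in cHF+ROSI mice and from -1.48 to -0.74 (median -0.82) in cHF+F+ROSI mice. The 5 highest values and the 2 lowest were all of cHF+ROSI mice, and the SD was 0.74 against 0.26. The log2 FC of -0.25 had an interval from -0.78 to 0.28 (exact permutation p = 0.384). It was -0.42 without cHF+ROSI mouse 2, -0.13 without mouse 1 or without mouse 7 of that group, and 0.05 with array quality weights. Pdk1 and Pdk2 differed by -0.09 (-0.24 to 0.06) and -0.10 (-0.38 to 0.17), and the second Pdk1 probe by 0.02. Both were lowest of their group in cHF+F+ROSI mouse 2 (-0.37 and -1.28), and without that mouse Pdk2 differed by 0.0010. Pdk3, Pdp2 and Pdpr had no probe past the signal filter. The genes of pyruvate carboxylase and the pyruvate carriers were also examined. Pyruvate carboxylase (Pcx), which makes oxaloacetate from pyruvate, was higher by 0.21 (0.03 to 0.38, exact permutation p = 0.0311, limma adjusted p = 0.602), with all 8 cHF+F+ROSI mice above the cHF+ROSI mean. The mitochondrial pyruvate carrier genes Mpc1 and Mpc2 differed by -0.09 and 0.01.

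**Figure D3:**
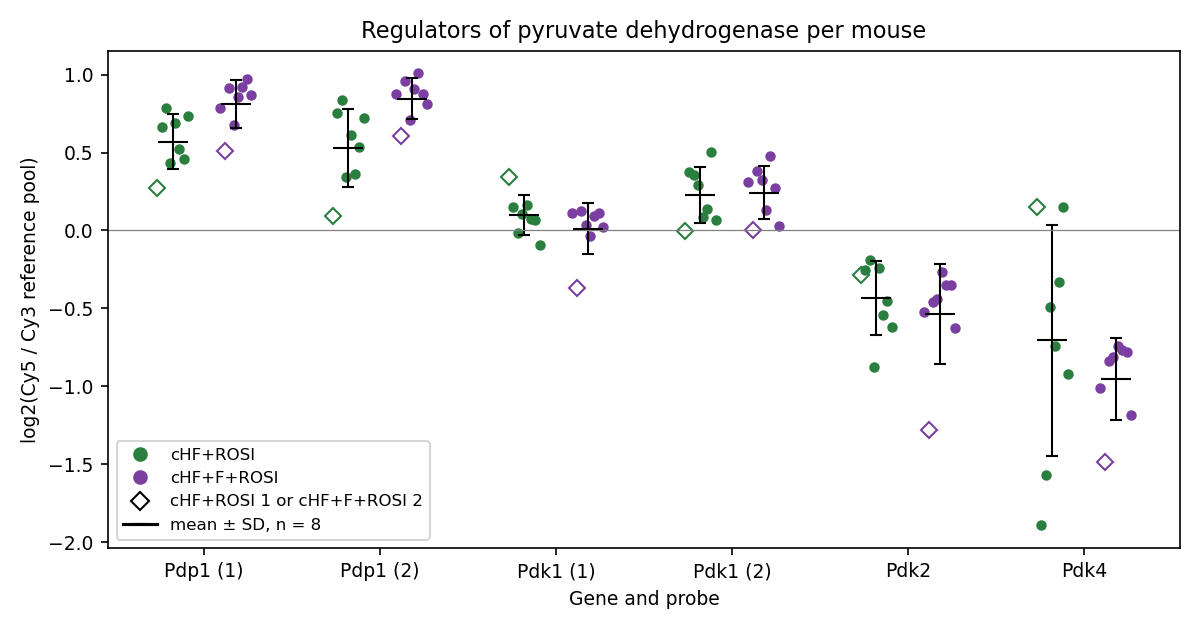
Level in every mouse, as log2(Cy5/Cy3 reference pool), of the phosphatase gene Pdp1 and the kinase genes Pdk1, Pdk2 and Pdk4, where (1) and (2) are the brighter and the weaker probe of a gene, with cHF+ROSI in green, cHF+F+ROSI in purple, open diamonds for cHF+ROSI mouse 1 and cHF+F+ROSI mouse 2, and the mean ± SD of 8 mice in black. Pdp1 is higher in cHF+F+ROSI mice on both probes (not so after scale normalization between arrays), and Pdk4 runs from -1.89 to 0.15 in cHF+ROSI mice against -1.48 to -0.74 in cHF+F+ROSI mice.

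The 17 genes of the citric acid cycle were split, with 10 higher and 7 lower in cHF+F+ROSI mice, a median log2 FC of 0.03 and none at an unadjusted limma p of up to 0.05 on the brightest probe. Cs encodes citrate synthase, which joins acetyl-CoA and oxaloacetate and whose activity is widely used as a measure of mitochondrial content (chr10:127765321-127765380). It ranged from 0.01 to 0.47 (median 0.34) in cHF+ROSI mice and from 0.32 to 0.68 (median 0.45) in cHF+F+ROSI mice. Cs was lowest in cHF+ROSI mouse 7 at 0.01, with the next mouse of that group at 0.29. The log2 FC was 0.13 (-0.0094 to 0.27, exact permutation p = 0.0667), 0.09 without mouse 7 and -0.17 after scale normalization between arrays. The second Cs probe, at chr10:127764036-127764095, gave a log2 FC of -0.02 (-0.15 to 0.11).

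Idh3a, the catalytic subunit of the NAD-dependent isocitrate dehydrogenase and a regulated step of the cycle (chr9:54401698-54401757), had the largest log2 FC of the 9 genes on their brightest probes. In cHF+F+ROSI mice it lay in a narrow range from 0.81 to 0.97 (median 0.93), and in cHF+ROSI mice it was 0.18 in mouse 1 and between 0.74 and 0.92 in the other 7 (median of all 8 mice 0.83). All 8 cHF+F+ROSI mice were above the cHF+ROSI mean, which mouse 1 lowered, and the groups overlapped between 0.81 and 0.92. The log2 FC of 0.17 (-0.0012 to 0.35) had a limma p of 0.0514 before and 0.678 after adjustment, and an exact permutation p of 0.00761. Without cHF+ROSI mouse 1, whose array had the weakest Cy5 signal, the log2 FC was 0.09 (0.0051 to 0.18, exact permutation p = 0.0141, limma adjusted p = 0.755). It was positive on all 4 slides (0.05 to 0.39) and -0.05 after scale normalization between arrays. The partner subunits Idh3b and Idh3g differed by -0.05 and 0.03.

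Idh2, the NADP-dependent isocitrate dehydrogenase of the mitochondrion, which supplies NADPH against oxidative damage (chr7:79971406-79971465), was the most variable of the 9 genes between mice. It ranged from -1.21 to -0.08 (median -0.28) in cHF+ROSI mice and from -1.72 to -0.09 (median -0.25) in cHF+F+ROSI mice. The medians were nearly equal, and 3 mice were far below the rest: cHF+F+ROSI mouse 2 (-1.72), cHF+ROSI mouse 8 (-1.21) and cHF+F+ROSI mouse 8 (-1.08), with the fourth lowest at -0.63. The SD within groups was 0.49, higher than in 98.1% of all probes kept (median 0.14), and for Fh1 it was 0.11. The log2 FC was -0.13 (-0.59 to 0.33, exact permutation p = 0.63), 0.04 without cHF+F+ROSI mouse 2, -0.25 without cHF+ROSI mouse 8, -0.08 without cHF+ROSI mouse 1, -0.05 without cHF+F+ROSI mouse 8 and 0.03 with array quality weights.

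The mice low in Idh2 were also low in genes of slow muscle fibers. The mean level of 9 slow fiber genes, among them Myh7 (slow myosin heavy chain) and Tnni1 (slow troponin I), was lowest in cHF+F+ROSI mouse 2 (-1.98) and second lowest in cHF+ROSI mouse 8 (-1.20), the same order as for Idh2, and cHF+F+ROSI mouse 8 ranked 5 of 16 from the bottom (-0.50). Of the 9 slow fiber genes 7 were lowest of all mice in cHF+F+ROSI mouse 2, down to -4.01 for Myh7, and 7 were second lowest in cHF+ROSI mouse 8. Across the groups the mean ran from -1.20 to 0.66 in cHF+ROSI mice and from -1.98 to 0.31 in cHF+F+ROSI mice. On average 8 of 9 slow fiber genes were lower in cHF+F+ROSI mice (median log2 FC -0.37), none at an unadjusted limma p of up to 0.05. These differences include cHF+F+ROSI mouse 2, the lowest of all mice in 7 of the 9. They were not refitted without that mouse, so how far they rest on it is not given. The part of fiber type in the values of Idh2 was not tested.

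**Figure D4:**
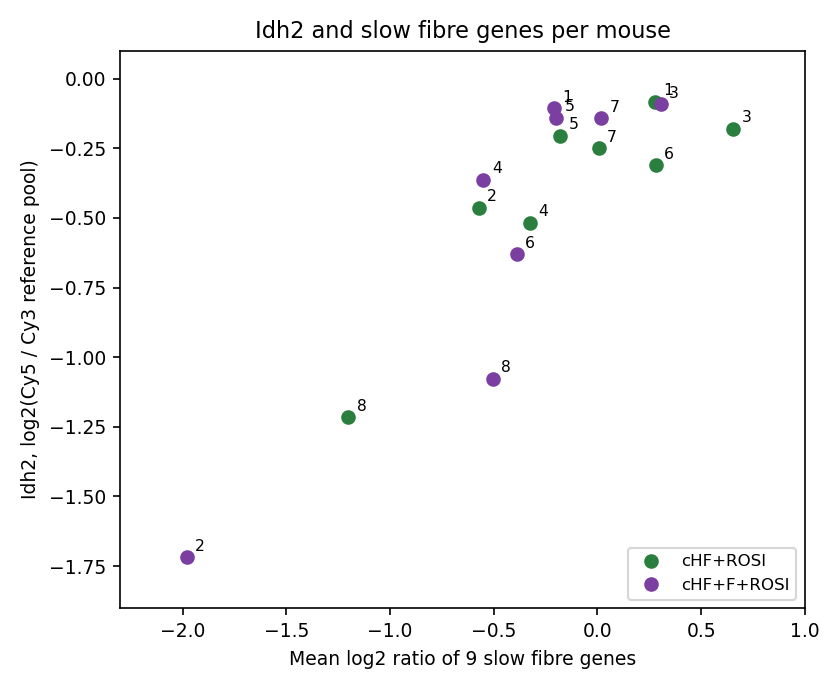
Level of Idh2 in each mouse against the mean log2(Cy5/Cy3) of 9 slow fiber genes, with the replicate number beside each point, cHF+ROSI in green and cHF+F+ROSI in purple. The mice lowest on both axes are cHF+F+ROSI mouse 2 (-1.72 and -1.98) and cHF+ROSI mouse 8 (-1.21 and -1.20), and mice of both groups lie along the rest of the range.

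Ogdh, the E1 subunit of the 2-oxoglutarate dehydrogenase complex, which releases the last carbon dioxide of the cycle (chr11:6255299-6255358), had a mean of -0.27 in cHF+ROSI mice and -0.29 in cHF+F+ROSI mice. It lay between -0.48 and -0.01 (median -0.29) in cHF+ROSI mice and between -0.96 and 0.03 (median -0.21) in cHF+F+ROSI mice. Again cHF+F+ROSI mouse 2 was alone at the bottom, with the next mouse of its group at -0.33, and its second probe showed the same mouse at -1.06 with the next at -0.40. The log2 FC was -0.01 (-0.26 to 0.23, exact permutation p = 0.920) and -0.06 on the second probe, without that mouse 0.08 (-0.09 to 0.26) and without cHF+ROSI mouse 1 -0.03. Dlst, the E2 subunit of the same complex, differed by 0.06, -0.11 and 0.01 on its 3 probes.

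Sucla2, the subunit of succinyl-CoA ligase that makes ATP (chr14:72329659-72329718), ranged from -0.06 to 0.32 (median 0.18) in cHF+ROSI mice and from -0.15 to 0.37 (median 0.28) in cHF+F+ROSI mice. The lowest value was again that of cHF+F+ROSI mouse 2, and the next of its group was 0.17. The log2 FC was 0.06 (-0.10 to 0.21, exact permutation p = 0.462) and 0.11 without that mouse (-0.0082 to 0.23, exact permutation p = 0.0549). Without cHF+ROSI mouse 1 it was 0.02 (-0.12 to 0.17, exact permutation p = 0.786), and the second probe gave 0.04. Suclg2, the GTP-making counterpart, was higher by 0.11 (exact permutation p = 0.0908) and by 0.17 on its second probe (exact permutation p = 0.0564), and the shared subunit Suclg1 differed by -0.05.

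The succinate dehydrogenase genes, which also form complex II of the respiratory chain, were mixed: Sdha differed by 0.07 and 0.11 on its 2 probes, Sdhb by -0.14, Sdhc by -0.04 and Sdhd by 0.09. Fh1, the fumarase that hydrates fumarate to malate (chr1:177438203-177440633), was the steadiest of the 9 genes. It ranged from -0.11 to 0.25 (median 0.12) in cHF+ROSI mice and from -0.09 to 0.25 (median 0.10) in cHF+F+ROSI mice. The ranges nearly coincided, and the log2 FC was 0.01 (-0.10 to 0.13, exact permutation p = 0.801). Mdh2, the malate dehydrogenase that regenerates oxaloacetate (chr5:136074914-136074973), was saturated in Cy5 on 12 of the 16 arrays, 6 in each group, where the spot gives only a lower bound of Cy5. It lay between 0.09 and 0.71 (median 0.19) in cHF+ROSI mice and between -0.10 and 0.36 (median 0.24) in cHF+F+ROSI mice. The highest value, 0.71, was of cHF+ROSI mouse 1 and the lowest of cHF+F+ROSI mouse 2. The log2 FC of -0.05 (-0.24 to 0.13, exact permutation p = 0.590) was 0.01 without cHF+ROSI mouse 1 and -0.0089 without cHF+F+ROSI mouse 2. After scale normalization between arrays it was -0.54.

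Of 14 genes that exchange carbon with the cycle, 9 were higher and 5 lower (median log2 FC 0.03). At an unadjusted limma p of up to 0.05, where 3.73% of 13822 genes were higher, there was 1 gene of the 14. That gene was Glud1, the glutamate dehydrogenase that turns glutamate into 2-oxoglutarate, at -0.17 to 0.12 (median -0.08) in cHF+ROSI mice and -0.03 to 0.23 (median 0.09) in cHF+F+ROSI mice. All 8 cHF+F+ROSI mice were above the cHF+ROSI mean, though the groups overlapped, and the log2 FC was 0.15 (0.04 to 0.25, exact permutation p = 0.00653, limma adjusted p = 0.475). Of 12 genes of mitochondrial content and biogenesis, 8 were higher and 4 lower (median 0.02). Among them Vdac1, the main channel of the outer mitochondrial membrane, went the other way, from -0.35 to 0.21 (median -0.22) in cHF+ROSI mice to -1.34 to -0.17 (median -0.45) in cHF+F+ROSI mice. Its log2 FC was -0.38 on both probes (-0.67 to -0.09 on the brighter, exact permutation p = 0.00901, limma adjusted p = 0.541), and -0.26 without cHF+F+ROSI mouse 2, where it was -1.34. Ppargc1b, a coactivator of mitochondrial genes, differed by -0.28 on its brightest probe (-0.56 to 0.0032, exact permutation p = 0.0782). Its other probes gave -0.20 (exact permutation p = 0.123) and -0.11 (exact permutation p = 0.563).

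The 2 arrays that stood apart held the lowest value in 8 of the 9 genes. cHF+ROSI mouse 1 was the lowest of all 16 in Pdha1, Dlat, Idh3a and Fh1 and the highest in Idh2 and Mdh2, and cHF+F+ROSI mouse 2 was the lowest in Idh2, Ogdh, Sucla2 and Mdh2. Without cHF+ROSI mouse 1, 6 of 9 genes were higher in cHF+F+ROSI mice (median log2 FC 0.02). Without cHF+F+ROSI mouse 2, 8 of 9 were higher in cHF+F+ROSI mice (median log2 FC 0.11), and without both arrays 9 of 9 were (median 0.08), with Idh3a the only one of the 9 at an unadjusted limma p of up to 0.05 (0.0474, limma adjusted p = 0.787), where 6.28% of all probes reached that limit. Within slides Idh3a was higher in cHF+F+ROSI mice on all 4, Pdha1, Dlat, Cs, Ogdh, Sucla2 and Fh1 on 3 of 4, and Idh2 and Mdh2 on 2 of 4. In Cy3, the reference pool itself, 0 of the 9 genes and 3.48% of all probes had an unadjusted limma p of up to 0.05.

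Among themselves the 9 genes moved together only in part over the 16 mice. Of the 36 pairs, 17 had a Pearson r above 0.5 and 4 had an r below 0, as a description of 16 arrays that share their reference. The genes whose level over the 16 arrays was most like the mean of the 9, each centered on its own mean, were Grsf1 (r = 0.956), which binds mitochondrial RNA, Slc25a3 (0.938), the mitochondrial phosphate carrier, the transcript BE368005 (0.918), Idh3g (0.915) and Ppip5k1 (0.914, listed as Hisppd2a), out of 13751 genes compared. Their own log2 FC lay between -0.06 and 0.06. The 9 genes were not scaled, so Idh2, with the widest spread, weighs most in their mean. That mean was lowest in cHF+F+ROSI mouse 2 (-0.32), and the r values were not computed without that mouse.

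Markers of other cells were measured on the same arrays. Of 8 adipocyte genes 7 were measured, all well above background on every array, and 6 were higher in cHF+F+ROSI mice (median log2 FC 0.44), 1 of them, Cidea (0.46), at an unadjusted limma p of up to 0.05 with an exact permutation p of 0.0639. Their mean level ran from -1.03 to 0.25 in cHF+ROSI mice and from -1.26 to 1.08 in cHF+F+ROSI mice. Of 6 endothelial genes 5 were lower, 3 of them (Cdh5, Kdr and Esam) at an unadjusted limma p of up to 0.05, with limma adjusted p of 0.459, 0.630 and 0.565. The mean level of the endothelial genes ran from -0.27 to 0.0086 against -0.34 to -0.12. Over all 13822 genes, 3.73% were higher and 4.62% lower in cHF+F+ROSI mice at the unadjusted limit used for these markers. Of the 12 fast fiber genes 8 were saturated in Cy5 on at least 1 array (Myh4 on all 16), so that their ratios are bounds and no mean level is given. Mylk2, the myosin light chain kinase of skeletal muscle, was not saturated and was lower by 0.36 at an unadjusted limma p of up to 0.05 (exact permutation p = 0.00451). Macrophage genes (8 measured, mean level -0.50 to 0.43 against -0.34 to 0.26), fibroblast genes (6 measured, -0.56 to 0.36 against -0.45 to 0.48), Schwann cell genes (5 measured, -0.36 to 0.81 against -0.56 to 0.76) and red blood cell genes (4 of 5 measured, -0.68 to -0.06 against -0.60 to 0.94) had 1 gene in all at an unadjusted limma p of up to 0.05, Lum of the fibroblast genes, lower by 0.23. The part of these cells in the differences of the 9 genes was not tested.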

How the data were processed

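Total RNA of gastrocnemius muscle from 16 mice was hybridized by the authors to two-color Agilent 44K arrays, Cy5 for the mouse and Cy3 for the reference pool, without dye swap. The authors deposited spot intensity values quantified with Feature Extraction (10.5.1.1 in the file headers, 10.5.5.1 in the submitters' processing notes) from joined scans at low and full laser power, with probe positions on mm8, and a table of log2 values, for which median signals had been filtered at 2 times background and Cy5 had been normalized to Cy3 in GeneMaths XT.

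Here, median signals were corrected by normexp (offset 50) on all spots, control spots were removed, probes with a mean signal of at least 2 times background in both channels were kept, outlier-flagged spots were left out of their array, loess was applied within each array to log2(Cy5/Cy3), and spots of a probe were averaged. A gene was represented by its brightest probe, and its other probes were reported beside it. Of all probes, 24375 (59.2%) were named through their accession in RefSeq. Groups were compared without covariates in limma 3.58.1 (lmFit, eBayes; R 4.3.3), and p-values of all 19398 probes were adjusted by the Benjamini-Hochberg method. Single values were also tested by the exact two-sided permutation test of the difference in means (smallest possible p 1.554e-04). No 2 arrays held identical values. The number of arrays limits precision, and the Cy3 signal was weak (1.78 to 2.02 times background in the median spot). The chain was tested on these arrays with mixed group labels and 2-fold changes added to some probes. Such changes are larger than the differences of the 9 genes, so that test does not cover differences of their size. Groups and replicate numbers were taken from the titles. The numbers were not treated as pairs of mice in the main comparison. The members, lists and naming rule (all 9 genes, every gene of the complex, its regulators and the cycle, and of other lists the genes with an unadjusted p of up to 0.05 and the 2 largest differences, with the 5 genes most like the mean of the 9) were chosen with earlier results of these data known. The alternatives concerned background, signals, normalization, filter, flags, weights, slide, replicate number, test, probe choice and single arrays. A gene of the citric acid cycle list is counted with the list but not reported by itself here. Metabolites, qRT-PCR and the diets without rosiglitazone were not analysed here.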

Additional observations from a re-analysis of the deposited data

Results flagged for a closer look

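Each measure was checked in each group of 8 mice. In 14 of 80 such checks, 1 mouse was separated from the others of its group by more than Dixon's limit, where about 4 flags are expected at 1 in 20. The checks shared mice and included probes of the same gene and means that held genes also checked singly. They were not independent, so the 14 do not measure an excess over chance. Of the 14, 8 were the same mouse, cHF+F+ROSI mouse 2. It was lowest of its group in Ogdh (-0.96, next -0.33, and -1.06, next -0.40, on the other probe), Sucla2 (-0.15, next 0.17), Pdk1 (-0.37, next -0.03), Pdk2 (-1.28, next -0.63), Vdac1 (-1.34, next -0.68), the mean of the kinase and phosphatase genes (-0.65, next -0.23) and the mean of the slow fiber genes (-1.98, next -0.55).

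In the cHF+ROSI group, mouse 1 was flagged in 3 measures. It was lowest in Idh3a (0.18, next 0.74) and Pdhb (-0.40, next 0.24), and its median Cy5 signal was 2.33 times background (next 3.02). Mouse 8 of that group was lowest in Idh2 (-1.21, next -0.52), and mouse 7 was lowest in Cs (0.014, next 0.29). In cHF+F+ROSI mouse 6 the mean of the red blood cell genes was 0.94, with the next mouse at 0.04. The causes were not tested.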

How the results depend on the processing

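Over 30 alternatives, 16 of them with 1 array left out and 1 (cHF+ROSI mouse 1 and cHF+F+ROSI mouse 2 left out together) added after seeing the data, none of the 9 genes, nor Pdhb, Pdhx, Dld, Pdp1, Pdk1, Pdk2, Pdk4, Pcx, Glud1 or Vdac1, reached an adjusted p below 0.05. The other genes named were not refitted one by one. The median log2 FC of the 9 genes lay between -0.02 and 0.13 and that of the pyruvate dehydrogenase complex between 0.07 and 0.20. The count of all probes with an adjusted p below 0.05 (3) was 14 without background correction, 19 on signals processed by Feature Extraction, 1 with median centring, 0 with scale normalization, 8 in the Cy5 channel alone, 10 in the authors' table and 10 with array weights, and lay between 3 and 5 with 1 array left out. The number of the 9 genes at an unadjusted limma p of up to 0.05 (0) was 1 without background correction (10.3% of all probes), 2 in the Cy5 channel (7.62%), 3 in the authors' table (7.98%), 2 without the filter on weak spots (5.19%), 1 with array weights (8.66%) and 1 without both arrays (6.28%), and lay between 0 and 2 with 1 array left out (6.07% to 10.2%). Idh3a passed this limit in 12 of the 30 alternatives, Cs in 7 and Pdha1 in 2.

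With scale normalization the log2 FC turned to -0.084 for Dlat, -0.17 for Cs, -0.055 for Idh3a, 0.20 for Ogdh, -0.082 for Pdhx, -0.034 for Pdp1 and 0.12 for Pdk2. Ogdh also turned to 0.0063 without background correction, 0.015 in the Cy5 channel, 0.064 in the authors' table, 0.036 with array weights and 0.064 without both arrays, and with 1 array left out it lay between -0.060 and 0.082, above 0 without cHF+ROSI mouse 2, 3 or 5 (0.023, 0.0072 and 0.014) or cHF+F+ROSI mouse 2 (0.082). Mdh2 kept its sign with scale normalization but moved to -0.54. It turned to 0.010 in the Cy5 channel, 0.043 in the authors' table, 0.036 with array weights and 0.054 without both arrays. With 1 array left out Mdh2 lay between -0.077 and 0.010, above 0 without cHF+ROSI mouse 1. Fh1 turned to -0.027 with median centring and lay between -0.016 and 0.040 with 1 array left out, below 0 without cHF+ROSI mouse 1 (-0.016) or cHF+F+ROSI mouse 4 (-0.0077). Idh2 turned to 0.035 with array weights and 0.084 without both arrays, and lay between -0.25 and 0.039 with 1 array left out, above 0 without cHF+F+ROSI mouse 2. Pdhx was -0.039 in the Cy5 channel and Pdk4 0.050 with array weights. Without both arrays Pdk1 was 7.29e-04 and Pdk2 0.022, and with 1 array left out Pdk2 lay between -0.17 and 0.0010, above 0 without cHF+F+ROSI mouse 2. The causes were not tested.

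Mice with the same replicate number deviated together in some pairs only (r from -0.34 to 0.73, 4 of 8 pairs over 0.1, and 1 of 8 mice closest to its own number). With the replicate number as a block, 0 probes had an adjusted p below 0.05, an unadjusted p of up to 0.05 was found for 7.36% of all probes and 0 of the 9 genes, while the log2 FC of these genes is the same by construction.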
